A study of Mus musculus with 6 samples.

Results

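Inflammatory chemokines of the mammary gland were examined as a set of 10 genes, Ccl2, Ccl5, Ccl6, Ccl7, Ccl8, Ccl9, Ccl11, Cxcl1, Cxcl9 and Cxcl10, which recruit monocytes, T cells, eosinophils and neutrophils. They were chosen by name for what their products do and not by their level, though with earlier results of these data known. All 10 were found among the 21950 genes measured. MMTV-FOXC1 transgenic mice, which carry a Myc-tagged human FOXC1 cDNA under the promoter of the mouse mammary tumor virus, were compared with wildtype mice. Both were of strain FVB/NJ, at postnatal week 11 and lactation day 2, and the labels give 3 samples of each genotype. The MMTV promoter is active in luminal epithelial cells and depends on hormones, and the labels do not say which transgenic line was used or whether the samples were separate animals. The source is labelled as epithelial cells, but the RNA came from slides of mammary tissue, and the transcripts of fat, stroma and leukocytes described further on were present.

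Chemokines are small secreted proteins that bind G protein-coupled receptors on leukocytes and direct their migration. Inflammatory chemokines are made on demand, by macrophages, T cells, stroma and epithelium, largely under NF-κB and interferon signalling, while homeostatic chemokines are made constantly and place lymphocytes in lymphoid organs. Atypical receptors bind the same ligands without G protein signalling and remove or transport them. In the mammary gland, Ccl11 with eosinophils, and macrophages, are known for their part in branching of the ducts before pregnancy.

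Expression was given as RPKM (reads per kilobase of exon, scaled to library size), and the reads behind each value were recovered from the steps between values. The transgenic samples held between 11770867 and 11775866 reads and the wildtype samples between 3492861 and 3496335 reads. Within a genotype the 3 samples were almost as alike as repeat draws of reads would be (chi-square per degree of freedom 1.05 in transgenic and 1.02 in wildtype mice), so that each genotype was counted as 1 library (n = 1). Differences between the genotypes therefore have no replicate check, no p-value is given, and the 95% Clopper-Pearson intervals compare the libraries and cover counting error only. The libraries differed widely in milk transcripts. The 9 milk genes examined summed to between 1133 and 1147 RPKM in transgenic samples and between 140353 and 140886 RPKM in wildtype samples. The median log2 change of the 13118 genes kept, those whose mean reached 2 RPKM in transgenic or wildtype mice, was 1.06 on the library-size scale. Changes are therefore also given on a size-factor scale, which takes off a shift of 1.24 (2.35-fold) and brings this median to 0.036. Library size without the 9 milk genes gives a smaller shift, of 0.79 (1.73-fold). Mouse Foxc1 itself had 9.07 RPKM in transgenic mice and 2.37 RPKM in wildtype mice, a log2 change of 1.58 that was 0.58 on the size-factor scale, and how many reads of the human cDNA align to the mouse gene was not tested.

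A gene was called higher or lower where the log2 of the ratio of mean RPKM + 1 was past 2 in either direction. Of the 10 chemokines, 7 passed the filter on low values, and 3 of these, Ccl5, Ccl8 and Cxcl10, were higher in transgenic mice, against 16.1% of all genes kept. No chemokine of the set was lower, against 1.23% of all genes kept. On the size-factor scale, Ccl5 and Ccl8 were still higher (4.17% of all genes kept were higher and 3.66% lower). In each of the 7 kept chemokines every transgenic sample was above every wildtype sample, as in 83.6% of all genes kept, and since the samples of a genotype behaved as reads of the same library this separation is no replicate check. The plot of RPKM by sample shows all 10.

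**Figure D1:**
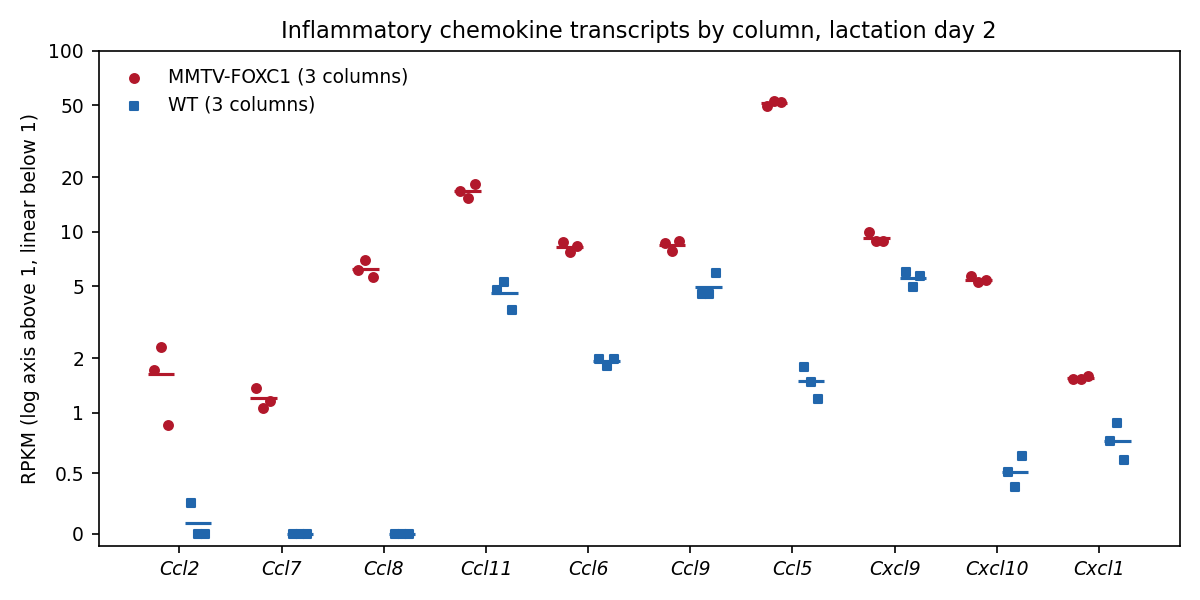
RPKM of the 10 inflammatory chemokines in each sample column, with the 3 transgenic columns (red circles) left of the 3 wildtype columns (blue squares) of each gene and a bar at their mean; the vertical axis is logarithmic above 1 RPKM and linear below. Ccl5 stands apart at 49.6 to 52.7 RPKM in MMTV-FOXC1 columns against 1.19 to 1.79 RPKM in WT columns, and Ccl7 and Ccl8 are at 0 in every WT column.

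Ccl5 (RANTES), which attracts T cells and monocytes, had the largest log2 change of RPKM + 1 of the 10. With a pseudocount of 0.1 RPKM the change of Ccl8, at 5.99, was larger than that of Ccl5, at 5.02. The level of Ccl5 was 49.6, 52.7 and 51.8 RPKM in the transgenic samples (1743 reads), against 1.79, 1.49 and 1.19 RPKM in the wildtype samples (15 reads). The groups were far apart, and the log2 change was 4.40 on the library-size scale and 3.39 on the size-factor scale. The level was 34.5-fold higher in transgenic mice (interval 20.9 to 61.8), or 14.6-fold higher after size factors. Ccl5 (ENSMUSG00000035042) lies on the minus strand of chromosome 11 of GRCm38, from 83525778 to 83530518, and shares no exonic base with another gene.

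Cxcl9 and Cxcl10 are neighbouring chemokines induced by interferon, and both act on Cxcr3 of T cells and natural killer cells, but they differed in unlike degree. Cxcl10 had 5.67, 5.26 and 5.41 RPKM in transgenic samples (429 reads) and 0.513, 0.385 and 0.642 RPKM in wildtype samples (12 reads), groups that lay well apart. It was 10.6-fold higher in transgenic mice (interval 6.01 to 20.7), or 4.51-fold higher after size factors. Its log2 change of RPKM + 1 was 2.09, but was within the threshold on the size-factor scale, at 1.35. Cxcl9 had 9.995, 8.90 and 8.93 RPKM in transgenic samples (988 reads) and 5.98, 4.93 and 5.70 RPKM in wildtype samples (175 reads), close to each other although the groups did not overlap. Its level was 1.68-fold that of wildtype mice (interval 1.43 to 1.98), and its log2 change turned from 0.65 on the library-size scale to -0.43 on the size-factor scale. The level of Cxcl10 over that of Cxcl9 was 0.587 in transgenic mice and 0.0927 in wildtype mice, a 6.33-fold difference (interval 3.48 to 12.6) that no scaling of the libraries alters. Cxcl10 (ENSMUSG00000034855) lies on the minus strand of chromosome 5, from 92346638 to 92348889. Of its exonic bases, 5.91% are shared with Art3 on the opposite strand, which had 11.3 RPKM in transgenic mice and 1.21 RPKM in wildtype mice. Whether counting used strand is not given in the sources used here, so that reads over the shared bases cannot be told apart.

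The 250 bases before the RefSeq start of Cxcl10, Cxcl9, Ccl9 and Cxcl1 are shown because these windows differ in matches to motifs that NF-κB and interferon factors are known to bind. Only exact matches to the letters of a motif were sought, so that a window without a match may still hold a site. Whether any site acts on these genes was not tested. The windows are from RefSeq for GRCm38.p6, read on the strand of the gene, and come from the reference strain and not from FVB/NJ. Capitals mark letters that match a κB motif on either strand and, in Cxcl10, a match to the interferon-stimulated response element (ISRE). The windows are chr5:92348890-92349139 (minus strand) for Cxcl10, chr5:92328080-92328329 (minus strand) for Cxcl9, chr11:83578637-83578886 (minus strand) for Ccl9 and chr5:90890995-90891244 (plus strand) for Cxcl1.
Cxcl10: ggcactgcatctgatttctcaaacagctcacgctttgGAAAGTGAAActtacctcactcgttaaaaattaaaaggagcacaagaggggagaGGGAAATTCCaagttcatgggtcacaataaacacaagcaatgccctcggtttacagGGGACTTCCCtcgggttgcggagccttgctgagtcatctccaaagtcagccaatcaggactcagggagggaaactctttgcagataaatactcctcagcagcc
Cxcl9: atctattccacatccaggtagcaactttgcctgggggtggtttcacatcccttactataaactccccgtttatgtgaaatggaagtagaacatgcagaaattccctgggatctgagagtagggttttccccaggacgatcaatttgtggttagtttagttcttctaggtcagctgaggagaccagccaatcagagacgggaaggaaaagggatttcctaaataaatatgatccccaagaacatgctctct
Ccl9: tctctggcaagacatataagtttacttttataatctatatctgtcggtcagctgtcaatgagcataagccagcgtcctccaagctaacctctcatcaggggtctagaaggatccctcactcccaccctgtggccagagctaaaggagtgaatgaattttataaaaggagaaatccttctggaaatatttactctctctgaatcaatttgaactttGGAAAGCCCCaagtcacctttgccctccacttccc
Cxcl1: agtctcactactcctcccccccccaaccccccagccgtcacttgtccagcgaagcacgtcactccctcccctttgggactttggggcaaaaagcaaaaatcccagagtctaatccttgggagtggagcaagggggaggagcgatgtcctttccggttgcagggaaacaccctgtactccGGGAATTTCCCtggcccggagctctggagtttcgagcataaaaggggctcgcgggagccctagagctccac

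Windows were at hand for 6 of the 10 chemokines (Ccl6, Ccl8, Ccl9, Cxcl1, Cxcl9 and Cxcl10) and not for Ccl2, Ccl5, Ccl7 and Ccl11. The κB motif matched in 3 of the 6, namely Ccl9, Cxcl1 and Cxcl10, and in 3.90% of 32851 windows of the same length. Cxcl10 held 2 κB matches, whose first bases lie at -159 and -103 where -1 is the last base before the start. In Ccl9 the match was on the other strand, from -35 to -26, and in Cxcl1 the matches on both strands overlapped between -71 and -61. The ISRE letters TTTCNNTTTC, searched on both strands, matched only in Cxcl10 among the 6 (from -213 to -204) and in 2.98% of all windows. The letters TTCNNNGAA of the gamma-activated site matched in none of the 6 and in 7.02% of all windows. The core letters GTAAA of forkhead sites matched in Ccl9 and Cxcl10, and in 28.3% of all windows, while the longer form GTAAACA, which contains them, matched in none of the 6 and in 3.17% of all windows. TATAAA matched in Ccl8, Ccl9 and Cxcl9 and in 12.4% of all windows, and in Ccl8 it lay from -32 to -27. Windows with a κB match thus belonged to a gene that was higher on the library-size scale (Cxcl10), a gene within the threshold (Ccl9) and a gene below the filter (Cxcl1). Windows without a κB match belonged to Ccl8, which was higher on both scales, and to Ccl6 and Cxcl9, which were within the threshold.

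Ccl2, Ccl7 and Ccl8 are the genes of the set named for monocyte chemoattractant proteins, and Ccl2 and Ccl7 act on Ccr2. Ccl8 had 6.15, 6.98 and 5.65 RPKM in transgenic samples (37, 42 and 34 reads), against no read in any wildtype sample. At the transgenic level, 33.5 reads would have been counted at the wildtype depth, or 14.2 reads on the size-factor scale. Against a floor of 3 reads over the wildtype library, Ccl8 was 11.2-fold higher in transgenic mice, and 4.75-fold higher on the size-factor scale. The lower end of its counting interval, which the plot of ratios draws, is 8.94-fold (log2 ratio 3.16, or 1.93 on the size-factor scale). Its log2 change of RPKM + 1 was 2.86, or 2.34 after size factors. Ccl8 (ENSMUSG00000009185) lies on the plus strand of chromosome 11, from 82115185 to 82116799.
Ccl7 had 1.38, 1.06 and 1.17 RPKM in transgenic samples (34 reads) and no read in wildtype samples. This gene was below the filter. Against the same floor it was 3.36-fold higher in transgenic mice, or 1.43-fold on the size-factor scale, at which only 4.28 reads would have been counted in wildtype mice. The lower end of its counting interval is 2.59-fold (log2 ratio 1.37, or 0.14 on the size-factor scale). Ccl2, the main ligand of Ccr2, had 1.72, 2.32 and 0.898 RPKM in transgenic samples (66 reads) and 0.252, 0 and 0 RPKM in wildtype samples (1 read). It was also below the filter. Its ratio of 19.6 has an interval from 3.40 to 785, so that the size of the difference was hardly measurable at the wildtype depth.

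Ccl11 (eotaxin), the ligand of Ccr3 on eosinophils, had the highest level of the 10 after Ccl5 in transgenic mice. Its level was 16.9, 15.3 and 18.3 RPKM in transgenic samples (643 reads) and 4.76, 5.29 and 3.70 RPKM in wildtype samples (52 reads). The groups did not overlap and the ratio was 3.67 (interval 2.76 to 4.97), but the log2 change of 1.67 was within the threshold, and it was 0.57 on the size-factor scale. Ccl8 over Ccl11, which lie in the same cluster, was at least 2.34 times as high in transgenic as in wildtype mice by the lower end of its counting interval. Ccl2 over Ccl11 could not be told from no difference (5.33-fold, interval 0.883 to 218).

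Ccl6 and Ccl9 are chemokines of mouse myeloid cells that act on Ccr1. Ccl6 had 8.82, 7.69 and 8.33 RPKM in transgenic samples (504 reads) and 1.99, 1.82 and 1.99 RPKM in wildtype samples (35 reads). The ratio was 4.27 (interval 3.03 to 6.21), and the log2 change of 1.66 (0.69 on the size-factor scale) was within the threshold. Ccl9 had 8.65, 7.87 and 8.87 RPKM in transgenic samples (910 reads) and 4.51, 4.51 and 5.92 RPKM in wildtype samples (159 reads). It differed less, with a ratio of 1.70 (interval 1.43 to 2.02) and a log2 change of 0.66 that turned to -0.41 on the size-factor scale. Ccl6 over Ccl9 was 0.978 in transgenic mice and 0.389 in wildtype mice, a 2.51-fold difference (interval 1.70 to 3.80).

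Cxcl1, which attracts neutrophils through Cxcr2, had 1.54, 1.54 and 1.59 RPKM in transgenic samples (103 reads) and 0.765, 0.917 and 0.612 RPKM in wildtype samples (15 reads). It was below the filter at a ratio of 2.04 (interval 1.18 to 3.77), and its log2 change of 0.54 turned to -0.11 on the size-factor scale, where the interval of its log2 ratio (-0.997 to 0.680) holds 0. Over the 7 kept chemokines, that interval lay above 0 for 5 and below 0 for Ccl9 and Cxcl9. Among all genes kept it lay above 0 for 42.0% and below 0 for 39.6%. The plot of ratios shows the intervals against both scales.

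**Figure D2:**
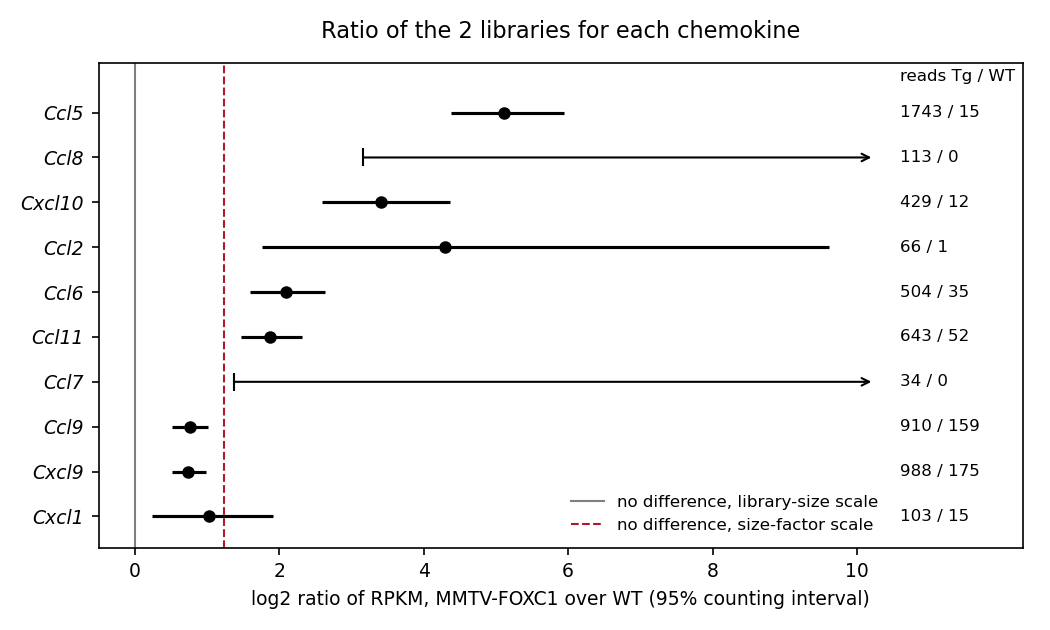
Log2 ratio of RPKM of MMTV-FOXC1 over WT for each chemokine (no pseudocount), with its 95% counting interval and the reads of the MMTV-FOXC1 and WT libraries at the right; arrows have no upper end because WT held no read. The grey line at 0 is no difference by library size, and the dashed line at 1.24 is no difference on the size-factor scale: Ccl9 and Cxcl9 lie between the lines, and the interval of Cxcl1 crosses the dashed line.

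The make-up of the set differed as well. The 10 chemokines summed to 110 RPKM in transgenic mice and 19.9 RPKM in wildtype mice, a ratio of 5.55 that was 2.36 on the size-factor scale. Ccl5 took 46.6% of the transgenic sum and 7.49% of the wildtype sum. Without Ccl5 the sums were 58.9 RPKM in transgenic mice and 18.4 RPKM in wildtype mice, a ratio of 3.20, or 1.36 after size factors. In transgenic mice the level of Ccl5 was followed by that of Ccl11 and then by Cxcl9, Ccl9 and Ccl6, whose counting intervals overlapped (8.71 to 9.87, 7.92 to 9.03 and 7.57 to 9.03 RPKM). Ccl8 and Cxcl10 came next with overlapping intervals, and Ccl2, Cxcl1 and Ccl7 were lowest. In wildtype mice Cxcl9 (27.8% of the sum), Ccl9 (25.0%) and Ccl11 (23.0%) led, and their intervals overlapped. Ccl6 and Ccl5 followed, also with overlapping intervals (1.35 to 2.69 and 0.834 to 2.46 RPKM). Ccl5 over Ccl9 was 6.08 in transgenic mice and 0.299 in wildtype mice, a 20.3-fold difference (interval 11.8 to 37.3). Ccl5 over Cxcl10 differed by 3.25-fold (interval 1.38 to 7.49).

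**Figure D3:**
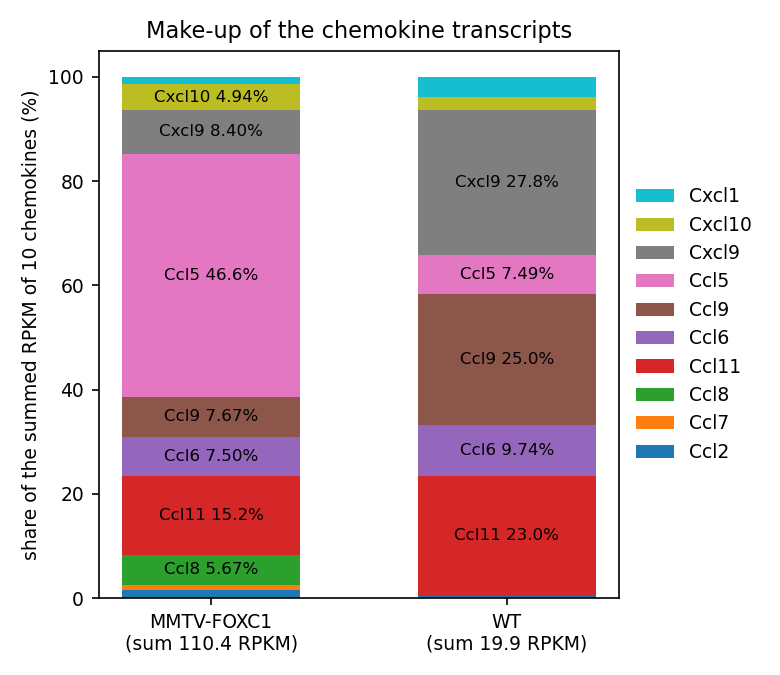
Share of the summed RPKM of the 10 chemokines taken by each, in percent, for MMTV-FOXC1 (left bar) and WT (right bar), from the mean of the 3 columns of a genotype. Ccl5 takes 46.6% in MMTV-FOXC1 mice and 7.49% in WT mice, while Cxcl9, Ccl9 and Ccl11 take the largest shares in WT mice.

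The 10 genes lie in 4 chemokine clusters of GRCm38, and change was not uniform within a cluster. On chromosome 11, from 82035571 to 82305690, the genes run Ccl2, Ccl7, Ccl11, Ccl12, Ccl8 and Ccl1, and their log2 changes on the size-factor scale went up to the 2.34 of Ccl8. Ccl2, Ccl7 and Ccl12 were below the filter, and the 1 added to RPKM holds their changes small. Whether Ccl8 differed from these was not tested. Ccl12, a further monocyte chemoattractant that is no member, had 19 reads in transgenic mice and none in wildtype mice, and Ccl1 had no read in either. A second cluster on chromosome 11, from 83525778 to 83664683, holds Ccl5, Ccl9 and Ccl6 with Ccl3 and Ccl4. Within it Ccl5, at 3.39, lay 47.1 kb from Ccl9, at -0.41, on this scale. Ccl3 had 42 reads in transgenic mice and 1 read in wildtype mice, and Ccl4 had no read. On chromosome 5, from 92321347 to 92365485, Cxcl9, Cxcl10 and Cxcl11 ranged from -0.43 to 1.35 on the size-factor scale. Cxcl1 lies in a cluster from 90759360 to 90905938 of chromosome 5 with Cxcl5, Ppbp, Pf4, Cxcl3, Cxcl15 and Cxcl2. The other neutrophil-attracting genes there were not called, as Cxcl3 had 1.77 RPKM in transgenic mice and 2.37 RPKM in wildtype mice, and Cxcl2 had 3 reads in transgenic mice and none in wildtype mice. Pf4, a product of platelets and megakaryocytes, was higher in transgenic mice (7.93 and 0.409 RPKM in transgenic and wildtype mice), and within the threshold on the size-factor scale.

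**Figure D4:**
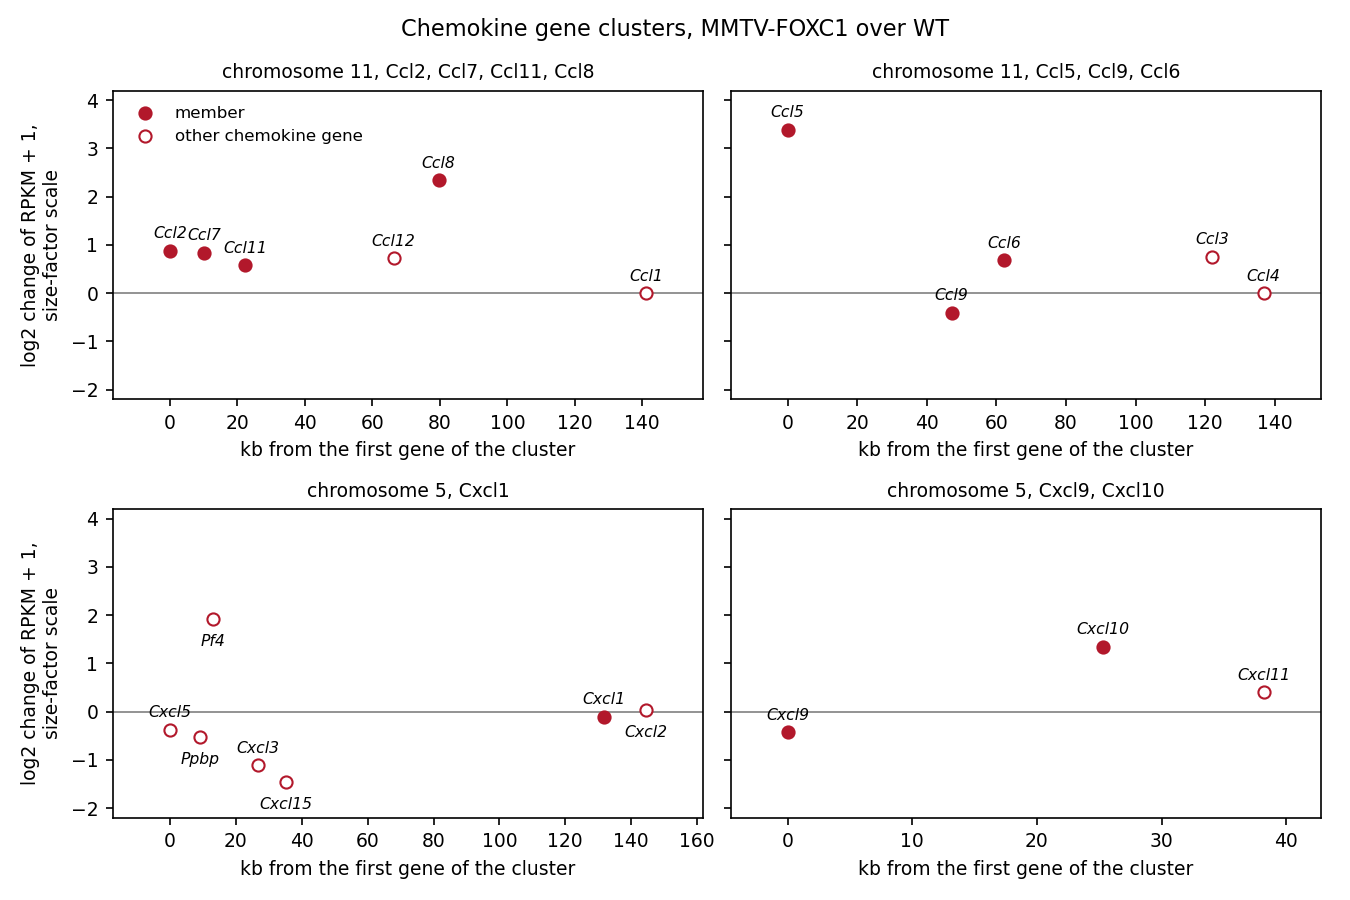
Log2 change of RPKM + 1 on the size-factor scale, MMTV-FOXC1 over WT, of the chemokine genes in each of the 4 clusters against their distance in kb from the first gene; filled points are the 10 chemokines of the set and open points the other genes. Neighbours differ, as Ccl5 at 3.39 and Ccl9 at -0.41 show, and genes below the filter, such as Ccl2 and Ccl7, are drawn as well.

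Of 5 signalling receptors of these chemokines, 3 were kept and 0 were called in either direction on either scale. Ccr2, the receptor of Ccl2 on monocytes, had 4.30 RPKM in transgenic mice and 1.02 RPKM in wildtype mice (log2 change 1.39, or 0.57 on the size-factor scale). Cxcr3, the receptor of Cxcl9 and Cxcl10, had 3.01 RPKM in transgenic mice (184 reads) and 0.220 RPKM in wildtype mice (4 reads), with a log2 change of 1.72, or 1.15 after size factors. Cxcr2, the receptor of Cxcl1, had the highest level of the 5, at 20.8 RPKM in transgenic mice and 15.4 RPKM in wildtype mice, and its log2 change of 0.41 turned to -0.76 on the size-factor scale. Ccr1 was below the filter (0.830 and 0.303 RPKM in transgenic and wildtype mice), and Ccr3, the receptor of Ccl11, had 7 reads in transgenic mice and none in wildtype mice. Of the 4 atypical receptors, Ackr1, which carries chemokines across venules, was higher in transgenic mice at 6.74 RPKM, against 0.504 RPKM in wildtype mice. Its log2 change of 2.36 was 1.60 after size factors, and Cadm3 covers 25.7% of its exons. The scavenging receptors Ackr2 (2.60 and 0.651 RPKM in transgenic and wildtype mice), Ackr3 (5.44 and 4.30 RPKM) and Ackr4 (4.70 and 3.43 RPKM) were within the threshold, and the changes of Ackr3 and Ackr4 were below 0 on the size-factor scale.

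Of 14 other inflammatory chemokines 5 were kept, of which 3 were higher in transgenic mice on the library-size scale, and Ccl22 and Cx3cl1 also after size factors. Ccl22, a ligand of Ccr4 made by dendritic cells and macrophages, had 26.1 RPKM in transgenic mice and 0.246 RPKM in wildtype mice (log2 change 4.44). Cx3cl1 (fractalkine) had 20.8 RPKM in transgenic mice and 1.11 RPKM in wildtype mice (3.37), and Cxcl16, the ligand of Cxcr6, had 18.1 RPKM in transgenic mice and 2.84 RPKM in wildtype mice (2.32), with Zmynd15 covering 18.3% of its exons. Of the lymphoid and homeostatic chemokines 10 of 11 were kept, 5 were higher (3 after size factors) and 1 was lower on both scales. Ccl21a, whose reads cannot be told from those of its near-identical copies, had 42.8 RPKM in transgenic mice and 0.110 RPKM in wildtype mice. Ccl19 had 31.2 RPKM in transgenic mice and 0.554 RPKM in wildtype mice, and Cxcl13 had 21.7 RPKM in transgenic mice and 0.166 RPKM in wildtype mice. Ccl28, which the lactating epithelium is known to secrete for the homing of antibody-producing cells, was lower at 0.576 RPKM in transgenic mice, against 72.3 RPKM in wildtype mice.

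Of 14 cytokines known to induce such chemokines, 5 were kept and 3 of these were higher in transgenic mice, or 2 after size factors. Tnf, which activates NF-κB, had 6.89 RPKM in transgenic mice (399 reads) and 0.175 RPKM in wildtype mice (3 reads), and Lta had 290 reads in transgenic mice and 1 read in wildtype mice. Tgfb1 had 39.5 RPKM in transgenic mice and 3.96 RPKM in wildtype mice, and was within the threshold after size factors. Ifng, the inducer of Cxcl9 and Cxcl10, had 10 reads in transgenic mice and none in wildtype mice, and Il6, Ifnb1 and Il17a had no read in either.
Of 18 interferon-γ target genes, 17 were kept and 11 were higher, or 7 after size factors. Their median log2 change was 2.40 on the library-size scale and 1.43 after size factors, beside 1.06 and 0.036 over all genes kept. The largest changes were those of Irf8 (21.7 and 0.392 RPKM in transgenic and wildtype mice), the immunoproteasome subunit Psmb8 (33.8 and 1.82 RPKM), Nlrc5, an activator of MHC class I genes (21.8 and 0.848 RPKM), and Irf1 (32.2 and 2.23 RPKM). Cxcl9 over Irf1 was 0.288 in transgenic mice and 2.48 in wildtype mice, so that Cxcl9 was lower relative to Irf1 in transgenic mice (0.116-fold, interval 0.0885 to 0.152). Cxcl10 over Irf1 could not be told from no difference (0.735-fold, interval 0.397 to 1.49). Irf1 had a log2 change of 3.36, so that a gene with the median change of 1.06 was also lower relative to it. The share of all genes that were lower relative to Irf1 was not counted. Of the 17 kept targets 16 were above 0 after size factors. Iigp1, with the smallest change, had 15.6 and 11.1 RPKM in transgenic and wildtype mice (log2 change 0.46, or -0.69 after size factors). Cxcl9 and Cxcl10 were not set against targets other than Irf1.
Of the 15 genes of the NF-κB response, all 15 were kept and 11 were higher, or 5 after size factors, with a median log2 change of 1.40 on that scale. The largest changes were those of the inhibitor Nfkbie (14.4 and 0.315 RPKM in transgenic and wildtype mice), Tnip1 (25.3 and 1.85 RPKM), the adhesion molecule Icam1 (17.2 and 0.977 RPKM) and Nfkb2 (31.1 and 2.76 RPKM). After size factors 12 of the 15 were above 0, while Nfkbia (-0.21), Nfkbiz (-0.29) and Zfp36 (-0.46) were below 0. Of 10 proteases and glycan anchors that process or hold chemokines, 8 were kept. Sdc1 was higher in transgenic mice, and none was lower, but Sdc4 was lower after size factors (54.5 RPKM in transgenic mice and 97.2 RPKM in wildtype mice).

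**Figure D5:**
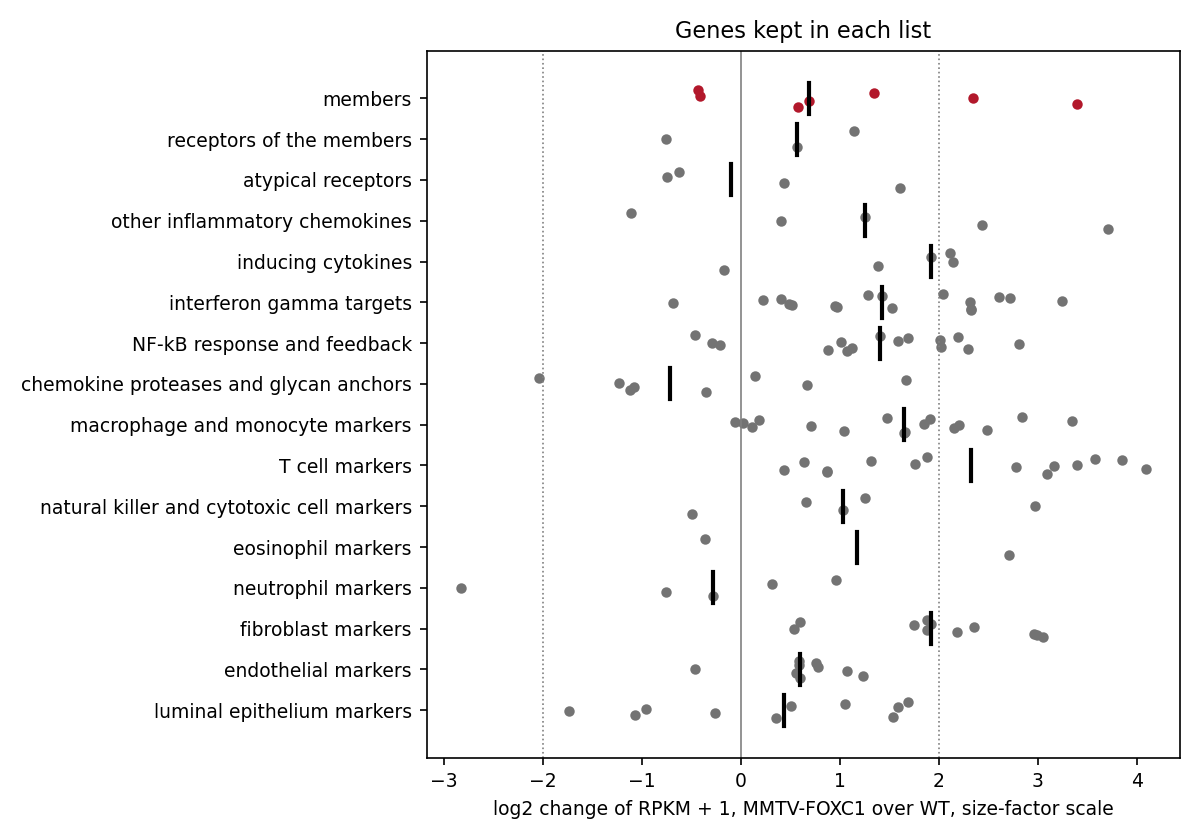
Log2 change of RPKM + 1 on the size-factor scale, MMTV-FOXC1 over WT, for the kept genes of each list (points) with the list's median (black bar). The 7 kept chemokines of the set are the red points of the top row. The solid line is no difference and the dotted lines are the thresholds at -2 and 2. The median of the 7 kept chemokines is 0.69, beside 0.57 for the 3 kept receptors, 1.43 for interferon-γ targets and 1.65 for macrophage markers.

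Markers of several leukocyte types were higher in transgenic mice, though no kept marker of neutrophils or of dendritic cells was called higher. Of 8 dendritic cell markers 7 were kept, and the list summed to between 35.9 and 36.6 RPKM in transgenic samples and between 8.63 and 9.15 RPKM in wildtype samples. Ptprc, the pan-leukocyte antigen CD45, had 33.2 RPKM in transgenic mice and 1.53 RPKM in wildtype mice, and 5 of 5 leukocyte genes were higher on both scales. In bulk tissue fewer cells of a type and less RNA per cell cannot be told apart. When each chemokine was set against Ptprc, a comparison chosen after the values were seen, 6 of the 10 were lower relative to Ptprc in transgenic mice, 0 were higher and 4 had an interval that held 1. Of the 7 kept chemokines 5 were lower, as were 92.8% of the other genes kept, and 1.40% of those genes were higher, so that a lower value relative to Ptprc was the common case. Ccl5 over Ptprc was 1.55 in transgenic mice and 0.977 in wildtype mice (1.59-fold, interval 0.944 to 2.88). Cxcl9 over Ptprc was 0.280 in transgenic mice and 3.63 in wildtype mice (0.0771-fold, interval 0.0630 to 0.0946), and the value for Ccl9 was 0.0782-fold (0.0635 to 0.0965). Ccl11 (0.169-fold), Ccl6 (0.197-fold), Cxcl1 (0.0938-fold) and Cxcl10 (0.488-fold) were lower as well, while the intervals of Ccl2, Ccl7 and Ccl8 held 1.

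T cells are a known source of Ccl5, and of 14 T cell markers all 14 were kept and 10 were higher (7 after size factors). They summed to between 337 and 350 RPKM in transgenic samples and between 21.6 and 25.3 RPKM in wildtype samples. Cd3e had 72.5 RPKM in transgenic mice and 1.20 RPKM in wildtype mice, and Ccl5 over Cd3e could not be told from no difference (0.569-fold, interval 0.270 to 1.22). The log2 change of Cd3e was 5.06, the largest of the 14 and above the median of 1.06 of all genes kept. The share of genes lower relative to Cd3e was not counted. Cd3d had the smallest change of the 14, at 1.56, against 4.40 for Ccl5. Ccl5 was not set against T cell markers other than Cd3e. Of 10 natural killer and cytotoxic cell markers 5 were kept and 1 was higher on both scales, Nkg7 with 326 reads in transgenic mice and none in wildtype mice. The list summed to between 27.1 and 28.2 RPKM in transgenic samples and between 2.61 and 4.01 RPKM in wildtype samples. Of 18 macrophage and monocyte markers 16 were kept and 11 were higher (5 after size factors). Their sums were 462 to 464 RPKM in transgenic samples and 47.7 to 60.5 RPKM in wildtype samples, led by Lyz2 (189 RPKM in transgenic mice and 7.31 RPKM in wildtype mice), and Timd4 had no read in wildtype mice and Clec4f none in either.
Of 10 eosinophil markers 2 were kept, and Alox15, which some macrophages also express, was higher, with 735 reads in transgenic mice and none in wildtype mice. The defining eosinophil markers Epx and Prg2 had 3 reads each in transgenic mice and Siglecf had 15 reads, against none in wildtype mice, and the list summed to between 14.7 and 15.7 RPKM in transgenic samples and between 2.24 and 2.40 RPKM in wildtype samples. Of 12 neutrophil markers 5 were kept, 0 were higher on either scale, and Ltf was lower after size factors. They summed to between 68.9 and 71.9 RPKM in transgenic samples and between 133 and 142 RPKM in wildtype samples, mostly from Ltf, a gene the lactating epithelium also expresses, and Ly6g had no read in either genotype. The other kept markers were within the threshold. S100a9 had 42 reads in transgenic mice and 1 read in wildtype mice, and Ngp had 95 and 8 reads. The changes of Csf3r (6.04 and 3.25 RPKM in transgenic and wildtype mice) and Cxcr2 were below 0 on the size-factor scale. Of 9 B cell markers 8 were higher (7 after size factors), and of 6 kept markers of high endothelial venules and lymph node stroma 5 were higher on both scales. These 5 were Fcer2a and Cr2, which the B cell list also holds, and the chemokines Ccl19, Ccl21a and Cxcl13 given above. Of the remaining markers, Chst4 was within the threshold (183 reads in transgenic mice and none in wildtype mice), and Madcam1 was below the filter. The lists summed to between 230 and 233 RPKM and between 146 and 150 RPKM in transgenic samples, against sums of 8.03 to 10.3 RPKM and 1.71 to 3.31 RPKM in wildtype samples. The methods state that lymph nodes were taken out when number 4 glands were collected for RNA, and whether this held for the slides is not given in the sources used here.
Fibroblasts are a known source of Ccl2 and Ccl11, and of 11 fibroblast markers 9 were higher (5 after size factors), with sums of 1336 to 1340 RPKM in transgenic samples and 87.7 to 88.1 RPKM in wildtype samples. Of 9 endothelial markers 2 were higher and 0 after size factors, with sums of 193 to 197 RPKM in transgenic samples and 49.9 to 54.6 RPKM in wildtype samples. Of 10 luminal epithelium markers 4 were higher and 0 after size factors, with sums of 459 to 461 RPKM in transgenic samples and 129 to 138 RPKM in wildtype samples and Krt8 at 109 RPKM in transgenic mice and 13.9 RPKM in wildtype mice. Of 9 adipocyte markers 9 were higher (6 after size factors), with sums of 1939 to 1961 RPKM in transgenic samples and 110 to 118 RPKM in wildtype samples, led in reads by Fabp4 (425 RPKM in transgenic mice and 44.9 RPKM in wildtype mice) and Cfd (907 RPKM in transgenic mice and 36.6 RPKM in wildtype mice). The part of these cell types in the levels of the chemokines was not tested.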

How the data were processed

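RNA from slides of mammary tissue was depleted of ribosomal RNA, sequenced as single reads and aligned to GRCm38 with TopHat2 (2.0.7). The authors deposited RPKM values made with SAMMate and Ensembl gene models, scaled to library size. Their DESeq2 results were not used, nor were the table's means and fold changes. All 6 sample columns were used. Reads were recovered as whole multiples of the RPKM steps (tolerance 1e-05 reads, lengths up to 120000 bases), a step tested on simulated data. For Ccl2, Ccl6, Cxcl1 and Cxcl10 the length was found by search, not from the annotation.

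Columns were averaged within a genotype, as 1 library each. Changes are log2 of (mean RPKM + 1), transgenic over wildtype, called past 2 in either direction among genes whose mean reached 2 RPKM in transgenic or wildtype mice, a rule of size with no p-value. Median-of-ratios size factors came from 12677 genes. Ratio intervals (95%) were Clopper-Pearson, and intervals of a ratio between genes were the exact conditional ones of a 2 by 2 table of reads. Alternatives were another scaling, pseudocount, filter or threshold and leaving out each column. Coordinates are from the GENCODE annotation. Python 3.11.15, NumPy 2.4.6, pandas 2.3.3 and SciPy 1.17.1 were used.

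The 10 chemokines and the gene lists were chosen with earlier results of these data known. The text names all 10, their receptors (except an item that is not reported here), the 4 genes of each other list with the largest change past the threshold, those past it the other way, Foxc1, Ptprc and the 2 marker genes of each type with the most reads. Of these, the marker genes are named only for cell types described with the chemokines, and further genes are named because they are neighbours, are at or near 0 reads or bear on a count.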

Additional observations from a re-analysis of the deposited data

How the results depend on the processing

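With a threshold of 1 on the log2 scale in place of 2, 5 of the 7 kept chemokines were higher, and none was lower. The median log2 change of all genes kept, at 1.06, was itself past this threshold, so that this count does not set the chemokines apart. Other scalings were median-of-ratios size factors, a trimmed mean of ratios and library size without the milk genes (shifts of 1.24, 1.17 and 0.79 on the log2 scale). With each, 2 were higher and Cxcl10 was not called, at log2 changes of RPKM + 1 of 1.35, 1.39 and 1.62. Without the added 1, Cxcl10 was 4.51-fold higher with median-of-ratios size factors. Under the same settings the change of Ccl9 turned to -0.41, -0.35 and -0.024 and that of Cxcl9 to -0.43, -0.37 and -0.041. Cxcl1 turned to -0.11 and -0.072 with median-of-ratios size factors and the trimmed mean. A pseudocount of 0.1 RPKM put Ccl6 past the threshold, at 2.04, and with 0.5 RPKM or with no filter no call of a chemokine differed. Leaving out each column in turn changed no call of the 10, with log2 changes of 4.31 to 4.48 for Ccl5, 2.79 to 2.92 for Ccl8 and 2.03 to 2.15 for Cxcl10. No paired analysis was possible because the columns of a genotype were counted as 1 library and no test was run. Each genotype is 1 library, so that no difference was checked against animals. The wildtype library held 10482902 reads, against 35321617 in transgenic mice, and Ccl2, Ccl7, Ccl8, Ccl5, Cxcl10 and Cxcl1 rest on 15 or fewer wildtype reads.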
